A study of Mus musculus with 6 samples.

Results

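The 35 genes described here encode the route from glucose to lactate and to mitochondrial pyruvate oxidation: glucose transporters, the glycolytic enzymes, lactate dehydrogenases, lactate and pyruvate carriers, and pyruvate dehydrogenase with its kinases. They were chosen by gene symbol from the 20893 genes in the deposited expression table of mouse hearts. All 35 symbols were found, in 36 rows, because Aldoa had a second row. The study compared 3 heart libraries of mice with a germline knockout of Rbpms, a gene for an RNA-binding protein, labelled R1KO, with 3 libraries labelled Wildtype. Both groups carry the strain label C57BL6/J, and no other allele or agent is named for either group. The design text calls the controls littermates. The age is not resolved here, because the hearts are embryonic in the series title and neonatal in the design text.

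Glycolysis splits glucose into pyruvate and gives ATP without oxygen. Lactate dehydrogenase exchanges pyruvate with lactate, and monocarboxylate transporters carry lactate across the cell membrane. In the fetal heart glucose and lactate are main fuels, and after birth cardiomyocytes turn to fatty acids. Pyruvate dehydrogenase kinases, which switch off pyruvate dehydrogenase, limit how much pyruvate enters the mitochondria.

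Of the 35 genes, 1 changed at an adjusted p under 0.05, against 0.942% of all tested genes. Aldoc, the gene for the aldolase C isoform, was lower in all 3 knockout libraries and reached 51.8% of the wildtype mean. The lactate transporter gene Slc16a1 stood at 121% of wildtype, and Pdk1, a pyruvate dehydrogenase kinase gene, stood at 78.9%. In both of these the groups did not overlap and the adjusted p was above the threshold. The other 32 genes did not pass the test either, among them the glucose transporters, hexokinases, phosphofructokinases, lactate dehydrogenases and pyruvate dehydrogenase subunits. Not passing does not show equal expression. In 14 of the 35, described below, the reads varied less between libraries than the library totals did.

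The promoters of these 3 genes are shown because their p-values were the smallest of the 35. Each is the 250 bases before a RefSeq start site on the plus strand, in the build GRCm38.p6, and for Aldoc and Pdk1 the upstream of 2 listed starts was taken. Capitals mark ACGTG or GCGTG on either strand, the core letters known for binding by hypoxia-inducible factors, and the last capitals of Pdk1 begin a match that runs past the start.
Aldoc, chr11:78322823-78323072: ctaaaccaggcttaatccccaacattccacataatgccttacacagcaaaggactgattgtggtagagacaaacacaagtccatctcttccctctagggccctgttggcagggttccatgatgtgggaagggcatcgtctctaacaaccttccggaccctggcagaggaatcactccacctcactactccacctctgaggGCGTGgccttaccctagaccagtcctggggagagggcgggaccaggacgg
Pdk1, chr2:71872974-71873223: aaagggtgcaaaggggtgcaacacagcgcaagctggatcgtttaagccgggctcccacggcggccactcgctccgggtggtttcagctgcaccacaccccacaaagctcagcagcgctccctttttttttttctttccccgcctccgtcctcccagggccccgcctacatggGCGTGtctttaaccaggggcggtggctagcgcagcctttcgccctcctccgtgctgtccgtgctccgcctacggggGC
Slc16a1, chr3:104638414-104638663: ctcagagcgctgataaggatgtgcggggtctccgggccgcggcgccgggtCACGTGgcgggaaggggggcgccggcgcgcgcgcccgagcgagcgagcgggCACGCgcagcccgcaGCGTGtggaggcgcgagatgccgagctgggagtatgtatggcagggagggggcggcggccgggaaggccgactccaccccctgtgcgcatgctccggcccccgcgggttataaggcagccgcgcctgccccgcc
The search window ran from 250 bases before to 50 after each start, 300 bases in all. Such windows were found for 33 of the 35 genes, Slc2a3 and Slc2a4 being the exceptions, and numbered 53. ACGTG was found in 22 of the 53 windows (41.5%), against 19.6% of all 32851 windows in the table. GCGTG was found in 30 of the 53 (56.6%), against 32.4% of all windows. The palindrome CACGTG, which holds ACGTG on both strands, was found in 6 of the 53 (11.3%), against 7.15% of all. Windows of a gene can overlap, so a site can be counted more than once, as in Aldoa. By gene, 18 of the 33 held ACGTG, 24 held GCGTG and 6 held CACGTG in at least 1 window. No such share was computed for all genes, and base composition was not matched. The Slc16a1 window held CACGTG, read as ACGTG at bases -200 and -199 from the start, and a further ACGTG at base 21. In Aldoc the single ACGTG lay at base 28, beyond the printed stretch. In Pdk1 no ACGTG was found in either of its 2 windows. A match of letters is a description and does not show a bound factor.

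The table gives whole numbers in which the reads of a gene were scaled by 1 factor per library, and these are called scaled read numbers here. The factors, read from the spacing of the low values, ran from 0.8524 in knockout replicate 3 to 1.1798 in wildtype replicate 3, and the recovered reads per library ran from 4163230 to 5805783. The test was limma on log2(scaled read number + 1) with p-values adjusted by the Benjamini-Hochberg method over 14974 genes. Whether the libraries of a group are separate animals is not stated in the labels. By the sex genes given below, each group held male and female libraries, so not all of a group came from the same animal. Whether libraries of the same sex did is not known. The p-values measure only the spread of the libraries, which may be partly technical. Rbpms (ENSMUSG00000031586, minus strand, mm39 chr8:34272671-34419891) read 375, 340 and 507 in the knockout libraries and 1182, 1176 and 1317 in wildtype, a log2 fold change of -1.61 (SE 0.14, adjusted p = 0.0124 by limma). Cardiomyocyte markers were abundant in every library, with sums over 10 genes of 26295 to 29374 in knockout and 27043 to 29545 in wildtype. Knockout replicate 3 and wildtype replicate 1 were female by Xist and Ddx3y, and the other 4 were male. Knockout replicate 3 also stood apart in other cell types. The summed value of 12 erythroid markers was 2765 there and 1098 to 1285 in the other 5 libraries, and that of 7 epicardial markers was 673 there against 1173 to 1388. Of these 7, 1 passed: Krt8, a keratin gene, was higher in the knockout at 93, 90 and 78 against 35, 31 and 32 (limma adjusted p = 0.0202). Wt1 did not share the low value of knockout replicate 3, at 245 there and 191 to 225 in wildtype. The sum of 8 cycling-cell markers was 1082 and 1340 in knockout replicates 1 and 2, 2515 in knockout replicate 3 and 1794 to 2430 in wildtype. Across all tested genes, 141 changed (0.942%), 76 higher (0.508%) and 65 lower (0.434%).

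All 35 genes passed the filter on low values (10 or more in 3 or more libraries), and each was above 10 in all 6. The second Aldoa row (ENSMUSG00000114515), at 4, 9 and 9 in knockout and 13, 9 and 11 in wildtype, did not pass and was not tested. By limma none of the 35 was higher in the knockout and 1 was lower. At an unadjusted p under 0.05, 1 was higher and 4 were lower, against 16.4% of all tested genes (8.54% higher and 7.86% lower). The knockout and wildtype values did not overlap in 8 of the 35, 2 higher and 6 lower, against 22% of all tested genes (11% higher and 10.9% lower). That share of 8 in 35 is close to the background. The median log2 fold change of the 35 was -0.05, against 0.00 over all tested genes.

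**Figure D1:**
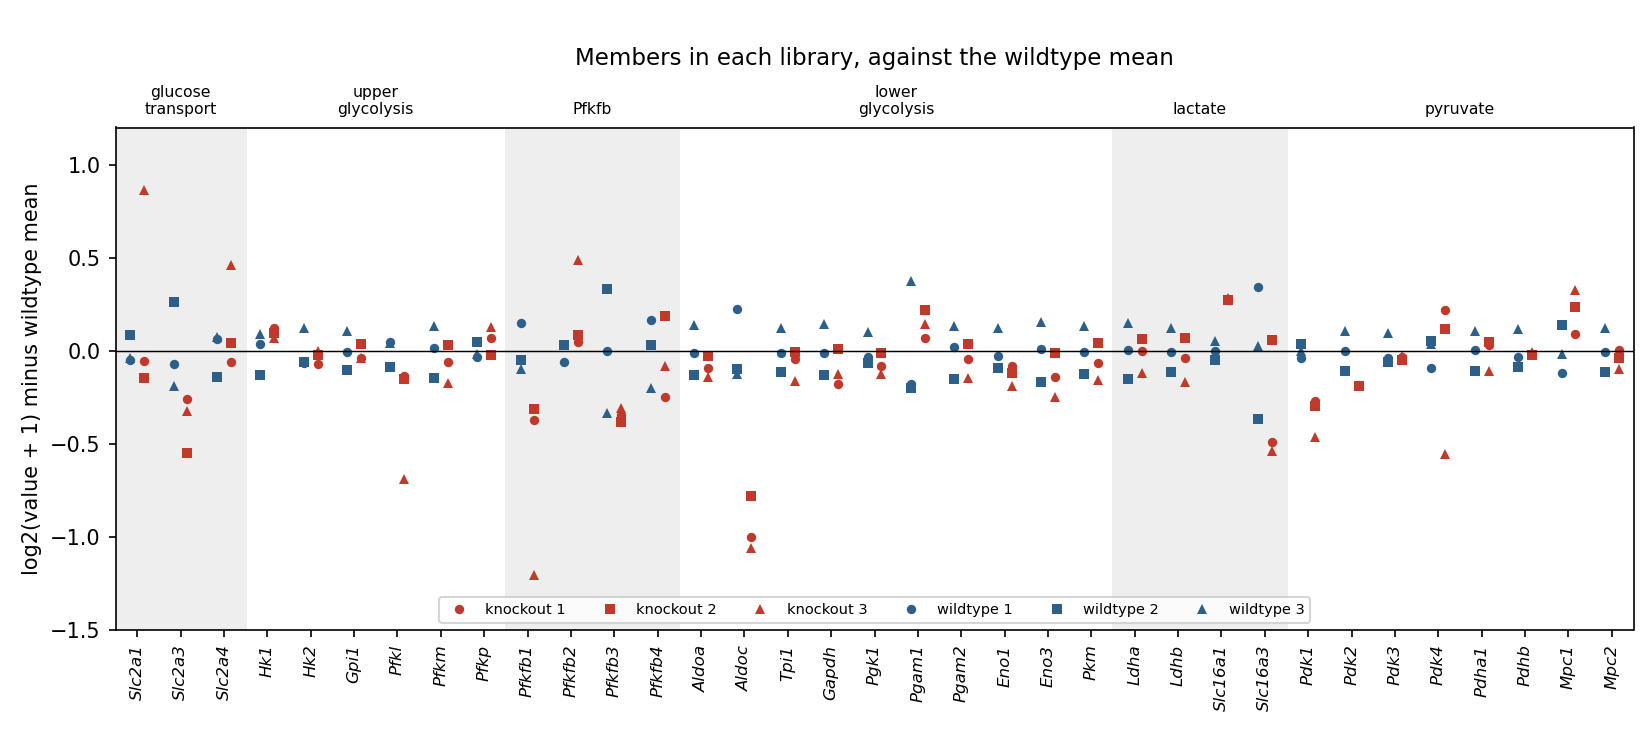
Each of the 35 genes in each of the 6 libraries, as log2(scaled read number + 1) minus the wildtype mean of the gene, with knockout libraries in red and wildtype in blue. Aldoc is the gene whose 3 knockout points all lie far under the wildtype points, and knockout replicate 3 (red triangles) lies away from the other knockout points in Slc2a1, Slc2a4, Pfkl, Pfkfb1, Pfkfb2 and Pdk4.

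Glucose enters the cell through the facilitative transporters, and 0 of the 3 transporter genes passed, also at an unadjusted p under 0.05. Slc2a4 encodes GLUT4, the insulin-responsive transporter of muscle and heart. It read 682, 732 and 980 in the knockout libraries and 744, 645 and 750 in wildtype, 798 ± 160 against 713 ± 59 (SD, n = 3 each). Only knockout replicate 3 lay above the wildtype range. The fitted log2 difference was 0.15 (95% interval -0.16 to 0.46), and without knockout replicate 3 it was -0.01. Slc2a1 encodes GLUT1, the transporter of fetal heart and red cells. Its values were 251, 236 and 476 in knockout and 252, 277 and 254 in wildtype, so that knockout replicate 3 again lay alone above all others. The log2 difference was 0.22 (95% interval -0.40 to 0.85, limma adjusted p = 0.726) and turned to -0.10 without that library.

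Knockout replicate 3 was also the library with the highest erythroid markers. Alas2, the erythroid heme synthesis gene, read 1004 there and 226 to 336 in the other libraries. The adult globin genes Hbb-bs, Hba-a1 and Hba-a2 did not follow. They read 214, 60 and 61 in that library and 230, 67 and 68 in wildtype replicate 3. The embryonic globin gene Hbb-bh1 was near 0 throughout, at 3 in knockout replicate 3 and 0 in the others. Of the 12 erythroid markers, 9 were tested and none passed. The part of red cells in the values of Slc2a1 and Slc2a4 was not tested. In whole hearts, fewer cells of a type and less RNA per cell cannot be told apart.

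Slc2a3, for GLUT3, a transporter of high affinity, gave the smallest p of the 3 transporters. It read 64, 52 and 61 in knockout and 73, 92 and 67 in wildtype. All knockout libraries lay under all wildtype libraries, by 3 between the nearest ones. The log2 difference was -0.38 (95% interval -0.78 to 0.03, limma adjusted p = 0.335). To compare levels between genes, recovered reads were divided by the number of 72-base stretches of the main transcript that no other annotated gene holds, which are the start positions open to a read of this length. On this scale of reads per start, Slc2a4 was at 0.313 (mean of the 6 libraries), Slc2a1 at 0.0951 and Slc2a3 at 0.0177. Their ranges over the libraries, 0.259 to 0.469, 0.0681 to 0.177 and 0.0129 to 0.0247, did not overlap. Whether the scale follows the level in genes at or above 0.5 reads per start, described below, was not tested.

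In the hexokinase to phosphofructokinase segment, 0 of 6 genes passed and the median log2 fold change was -0.02. At an unadjusted p under 0.05 the count was also 0. The hexokinases trap glucose as glucose 6-phosphate. Hk1 read 1826, 1793 and 1756 in knockout and 1719, 1532 and 1785 in wildtype, and Hk2 read 632, 653 and 664 against 635, 638 and 724. Their log2 differences were 0.10 (95% interval -0.06 to 0.26) and -0.03 (95% interval -0.19 to 0.13). The groups overlapped in both genes. Per start Hk1 stood at 0.463 and Hk2, the insulin-regulated isoform, at 0.122. Gpi1, for glucose 6-phosphate isomerase, read 1519 to 1603 in knockout and 1453 to 1684 in wildtype.

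Phosphofructokinase 1 commits sugar to glycolysis and has a muscle (Pfkm), a liver (Pfkl) and a platelet (Pfkp) isoform. Pfkl read 722, 714 and 491 in knockout and 817, 746 and 814 in wildtype. The groups did not overlap, and knockout replicate 3 was the farthest down. The log2 difference was -0.32 (95% interval -0.66 to 0.01, limma adjusted p = 0.312) and -0.14 without knockout replicate 3. Pfkm read 1638, 1747 and 1516 in knockout and 1722, 1542 and 1871 in wildtype. Pfkp read 1017, 956 and 1059 against 949, 1002 and 959. In both of these the groups overlapped, at log2 differences of -0.07 (95% interval -0.26 to 0.13) and 0.06 (95% interval -0.09 to 0.20). Pfkm was the highest of the 3 per start, at 0.597, above Pfkp at 0.295 and Pfkl at 0.195.

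The bifunctional Pfkfb enzymes make and break down fructose 2,6-bisphosphate, the activator of phosphofructokinase 1. None of the 4 passed, and their median log2 fold change was -0.20. At an unadjusted p under 0.05, 1 was lower, against 7.86% of all tested genes. Pfkfb1, on the X chromosome, read 47, 49 and 26 in knockout and 68, 59 and 57 in wildtype. All knockout libraries were under all wildtype libraries, with knockout replicate 3 lowest and wildtype replicate 1 highest, which are the 2 female libraries. The log2 difference was -0.63 (95% interval -1.21 to -0.05, limma adjusted p = 0.262) and -0.34 without that library. Pfkfb2, the main cardiac isoform, read 261, 268 and 355 against 242, 258 and 258. The groups did not overlap, by 3 between the nearest libraries, and the log2 difference was 0.21 (95% interval -0.06 to 0.48), or 0.07 without knockout replicate 3. Pfkfb3 read 114 to 120 in knockout and 118 to 188 in wildtype, and Pfkfb4 read 56 to 76 against 58 to 75. Pfkfb2 was the most abundant of the 4 per start at 0.0847, although only 75.6% of its main transcript is unshared, and the other 3 lay between 0.0195 and 0.0303.

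Aldolase splits fructose 1,6-bisphosphate into 2 triose phosphates. The A isoform dominates in muscle, and the C isoform is best known from brain. Aldoc (ENSMUSG00000017390, plus strand, mm39 chr11:78213794-78218607) read 102, 119 and 98 in the knockout libraries and 240, 192 and 188 in wildtype. The highest knockout value lay far under the lowest wildtype value. The group means were 106 ± 11.2 and 207 ± 28.9 (SD, n = 3 each), and the log2 difference was -0.95 (SE 0.14, 95% interval -1.25 to -0.64, limma adjusted p = 0.0233). The estimate stayed between -1.03 and -0.84 over 17 other ways of processing, and its adjusted p ran from 0.00242 to 0.144. It passed in 12 of them and not without knockout replicate 1 (adjusted p = 0.0928), wildtype replicate 1 (0.144), 2 (0.0974) or 3 (0.143), nor with a term for replicate number (0.0974).

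Aldoa, the muscle isoform, did not pass. It read 1215, 1273 and 1175 in knockout and 1288, 1187 and 1426 in wildtype, a log2 difference of -0.09 (95% interval -0.26 to 0.09, limma adjusted p = 0.62). Per start Aldoa was at 0.9 and Aldoc at 0.057, so the gene that passed is the less abundant isoform. In the ratio of Aldoc to Aldoa within a library the library factor cancels. This ratio was 0.084, 0.0935 and 0.0834 in knockout and 0.186, 0.162 and 0.132 in wildtype. It was lower in 3 of 3 knockout libraries (difference -0.86 on the log2 scale). The exact two-sided permutation p was 0.1, the smallest that 3 against 3 can give. After adjustment over the 10 isoform ratios computed, this p was 0.5. The recovered reads of Aldoa ran only from 1209 to 1378 (1.14 times), while the library totals differed by 1.395 times. The part of library size in this ratio was not tested. The sums of smooth muscle and endothelial markers also did not overlap between the groups. The sum of 6 smooth muscle markers was 2352 to 2812 in knockout and 3024 to 3337 in wildtype. In 4 of the 6 (Myh11, Acta2, Cnn1 and Smtn) the groups did not overlap and knockout was lower, and 0 passed. The other 2 overlapped, with log2 differences of -0.03 in Tagln and 0.73 in Lmod1, which read 251 in knockout replicate 3 and 33 to 71 in the other libraries. That of 8 endothelial markers was 8134 to 8678 in knockout and 7638 to 7889 in wildtype, with 4 of the 8 not overlapping and 0 passing. Over all tested genes 22% did not overlap. The part of either cell type in the values of Aldoc was not tested.

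The remaining genes from triose phosphate to pyruvate did not pass. Their log2 fold changes ran from -0.13 in Eno1 and Eno3 to 0.14 in Pgam1. Gapdh, for the dehydrogenase that makes NADH in glycolysis, read 360, 410 and 373 in knockout and 404, 372 and 450 in wildtype, a log2 difference of -0.10 (95% interval -0.30 to 0.10). Only 19.4% of the Gapdh main transcript is not shared with another annotated gene, so its level is uncertain, as is that of Pgk1 at 32.4%. Tpi1, for triose phosphate isomerase, read 792 to 881 against 819 to 962. Pgk1, for phosphoglycerate kinase, read 240 to 260 against 250 to 281. Both had a log2 difference of -0.07, and the groups overlapped.

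Phosphoglycerate mutase, enolase and pyruvate kinase complete the pathway. Pgam2, the muscle mutase gene, read 582, 617 and 543 in knockout and 608, 541 and 658 in wildtype, and Pgam1, its brain isoform, read 70, 78 and 74 against 59, 58 and 87. Eno3, the muscle enolase gene, read 1137, 1243 and 1056 against 1263, 1117 and 1397, and Eno1, the ubiquitous form, read 554, 540 and 513 against 574, 549 and 638. Every one of these 4 genes had overlapping groups. Pkm, which makes the M1 and M2 pyruvate kinases by alternative splicing, read 1019 to 1169 in knockout and 1042 to 1246 in wildtype, and a gene-level value does not separate the forms. The ratios of Pgam1 to Pgam2 and of Eno1 to Eno3 differed between genotypes by 0.19 and 0.00 on the log2 scale, with exact permutation p of 0.3 and 1. Only 59.3% of Pgam1 and 33.7% of Eno1 is unshared sequence, so these isoform ratios are uncertain.

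**Figure D2:**
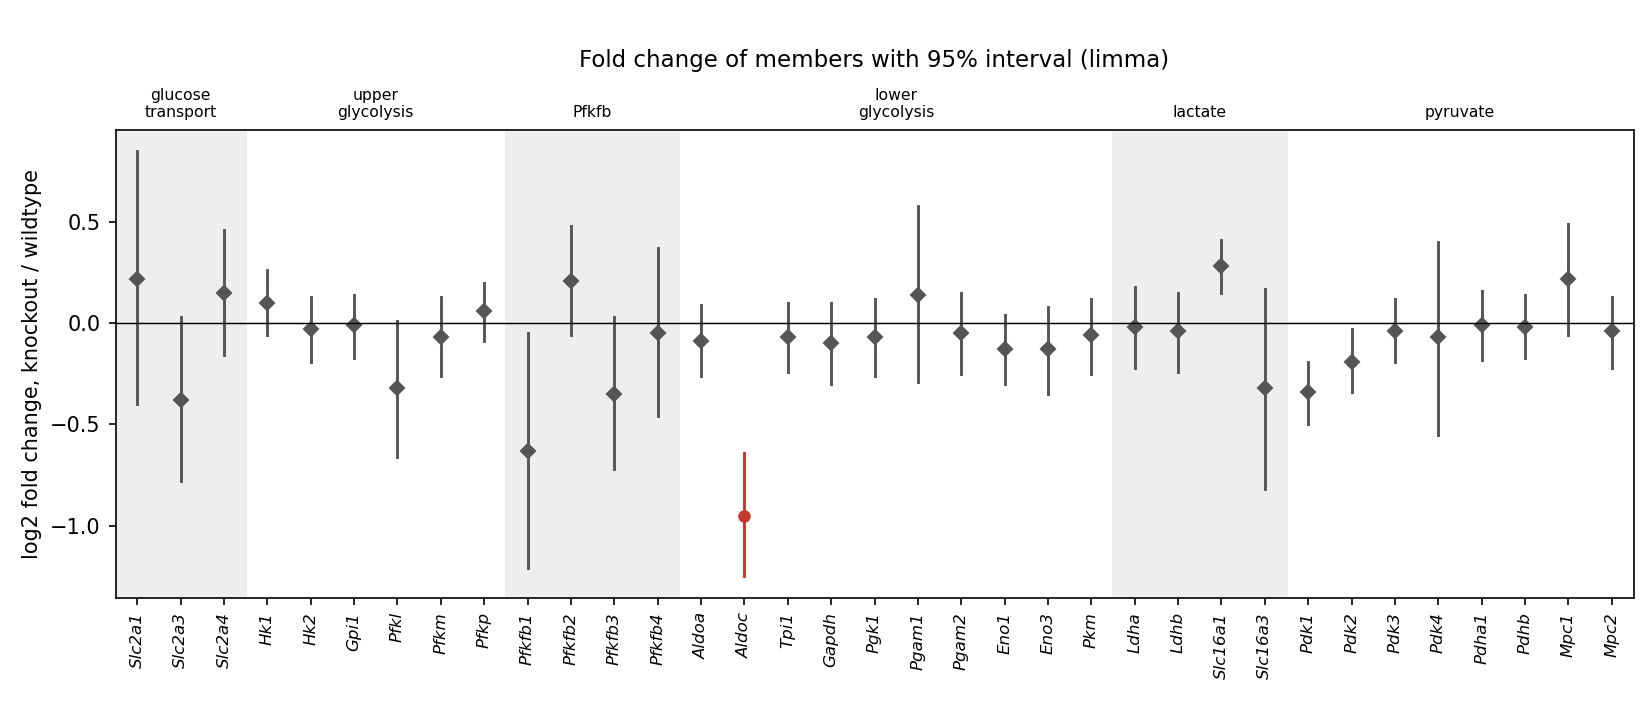
Log2 fold change of each of the 35 genes, knockout over wildtype, with its 95% interval from limma on log2(scaled read number + 1), ordered by role. The red point is Aldoc, the 1 gene with an adjusted p under 0.05, at -0.95, and the intervals of Pfkfb1, Pdk1, Pdk2 and Slc16a1 also leave out 0 before adjustment.

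Of the 4 lactate dehydrogenase and monocarboxylate transporter genes among the 35, 0 passed. At an unadjusted p under 0.05, 1 was higher, against 8.54% of all tested genes. Ldha, the muscle form that favours lactate, read 964, 1006 and 887 in knockout and 967, 867 and 1068 in wildtype. Ldhb, the heart form that favours pyruvate, read 798, 860 and 729 against 815, 757 and 890. Their log2 differences were -0.02 (95% interval -0.22 to 0.18) and -0.04 (95% interval -0.24 to 0.15). The ratio of Ldha to Ldhb was 1.21, 1.17 and 1.22 in the knockout libraries and 1.19, 1.15 and 1.2 in wildtype. The ratios overlapped and differed by 0.03 on the log2 scale, with an exact permutation p of 0.5. The recovered reads ran only from 905 to 1041 in Ldha and from 754 to 855 in Ldhb, while the library totals differed by 1.395 times. The part of these narrow ranges in the steady ratio was not tested. Per start, Ldhb stood at 0.798 and Ldha at 0.606.

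Slc16a1 (ENSMUSG00000032902, plus strand, mm39 chr3:104545984-104565778) encodes MCT1, the main lactate and pyruvate carrier of cardiomyocytes. It read 1286, 1280 and 1293 in the knockout libraries and 1058, 1023 and 1101 in wildtype. All 3 knockout values were above all 3 wildtype values. The means were 1286 ± 6.51 and 1061 ± 39.1 (SD, n = 3 each), and the log2 difference was 0.28 (SE 0.06, 95% interval 0.15 to 0.41, limma adjusted p = 0.0615). It passed in 1 of 17 other ways of processing, without knockout replicate 3 (adjusted p = 0.0288), and its adjusted p reached 0.311 without wildtype replicate 1. Its log2 difference stayed between 0.24 and 0.31. The lactate exporter MCT4, encoded by Slc16a3, read 90, 132 and 87 in knockout and 161, 98 and 129 in wildtype, with overlapping groups and a log2 difference of -0.32 (95% interval -0.82 to 0.17). Per start Slc16a1 stood at 0.273 and Slc16a3 at 0.027.

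A further monocarboxylate transporter gene outside the 35, Slc16a7 for MCT2, which carries pyruvate and lactate with high affinity, did pass. It read 60, 71 and 72 in the knockout libraries and 134, 125 and 137 in wildtype. All knockout values lay far under the wildtype values, at 67.7 ± 6.66 against 132 ± 6.24 (SD, n = 3 each). The log2 difference was -0.96 (SE 0.14, 95% interval -1.27 to -0.65, limma adjusted p = 0.0233). It passed in 12 of 17 other ways of processing, as Aldoc did, and not with a term for replicate number (adjusted p = 0.103) or without knockout replicate 1 (0.0915), wildtype replicate 1 (0.163), 2 (0.0974) or 3 (0.179).

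**Figure D3:**
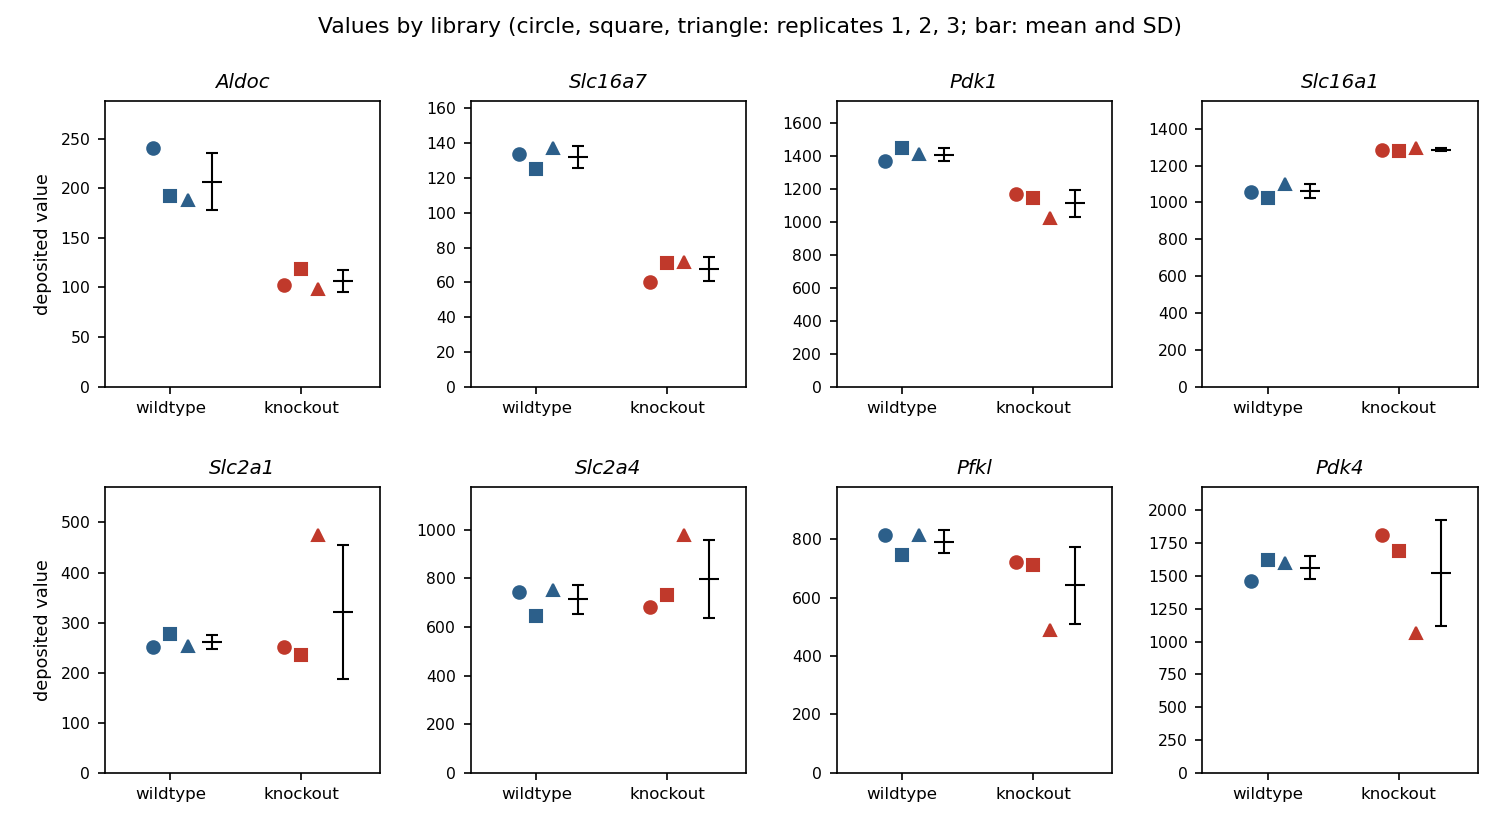
Scaled read numbers of 8 genes in each library (circle, square and triangle for replicates 1, 2 and 3), with the mean and SD of each group. In the upper row the groups of Aldoc, Slc16a7, Pdk1 and Slc16a1 do not overlap, and in the lower row knockout replicate 3 lies away from the other knockout libraries in Slc2a1, Slc2a4, Pfkl and Pdk4.

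Of the 8 genes for pyruvate entry and its control, 0 passed, and the median log2 fold change was -0.04. At an unadjusted p under 0.05, 2 were lower, against 7.86% of all tested genes. Pdk1 (ENSMUSG00000006494, plus strand, mm39 chr2:71703568-71734202), a kinase gene known as a target of hypoxia-inducible factor, read 1168, 1145 and 1020 in knockout and 1368, 1444 and 1408 in wildtype. The highest knockout library was well under the lowest wildtype library. The means were 1111 ± 79.6 and 1407 ± 38 (SD, n = 3 each), and the log2 difference was -0.34 (SE 0.07, 95% interval -0.50 to -0.19, limma adjusted p = 0.0583). The adjusted p ran from 0.023 to 0.261 over 17 other ways of processing and was under 0.05 in 5, with no filter on low values (0.0425), quantile normalization (0.0417), a term for sex (0.038), and without knockout replicate 2 (0.0419) or 3 (0.023).

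Pdk2, the widespread kinase isoform, read 1211, 1207 and 1204 in knockout and 1374, 1274 and 1481 in wildtype. The groups did not overlap, and the log2 difference was -0.19 (95% interval -0.34 to -0.03, limma adjusted p = 0.218). Pdk4, the isoform raised by fatty acids and fasting, read 1816, 1690 and 1063 against 1462, 1621 and 1602. Knockout replicates 1 and 2 were above the wildtype range and knockout replicate 3 was below it, so the log2 difference of -0.07 (95% interval -0.55 to 0.40) became 0.17 without that library. The ratio of Pdk1 to Pdk4 was 0.643, 0.678 and 0.96 in knockout and 0.936, 0.891 and 0.879 in wildtype, with an exact permutation p of 0.4. Knockout replicate 3 again lay apart from the other knockout libraries. Pdk3, on the X chromosome, read 433 to 439 in knockout and 429 to 479 in wildtype. Per start the order was Pdk2 at 0.595, Pdk4 at 0.456, Pdk1 at 0.246 and Pdk3 at 0.218, with overlapping ranges of Pdk2 and Pdk4 and of Pdk1 and Pdk3.

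Pyruvate dehydrogenase turns pyruvate into acetyl-CoA. Pdha1, for the alpha subunit that the kinases phosphorylate, read 1619 to 1805 in knockout and 1617 to 1875 in wildtype, and Pdhb, for the beta subunit, read 965 to 977 against 924 to 1065. Their log2 differences were -0.01 and -0.02. The mitochondrial pyruvate carrier is a pair of Mpc1 and Mpc2. Mpc1 read 139, 154 and 164 in knockout and 120, 144 and 129 in wildtype, a log2 difference of 0.22 (95% interval -0.06 to 0.49, limma adjusted p = 0.412), and 62.1% of its main transcript is unshared. Mpc2 read 447 to 480 against 441 to 521. The groups overlapped in all 4 of these genes.

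The 10 ratios of isoforms were tested by exact two-sided permutation tests, for which 0.1 is the smallest possible p. Aldoc to Aldoa was the 1 ratio without overlap between the genotypes. The ratio of Slc16a3 to Slc16a1 was 0.07, 0.103 and 0.0673 in knockout and 0.152, 0.0958 and 0.117 in wildtype, a log2 difference of -0.60 (exact permutation p = 0.2). Hk1 to Hk2 was 2.89, 2.75 and 2.64 against 2.71, 2.4 and 2.47, a log2 difference of 0.13 (exact permutation p = 0.2). Pfkl to Pfkm and Pfkp to Pfkm differed by -0.26 and 0.12 on the log2 scale, with exact permutation p of 0.2 and 0.5. Slc2a1 to Slc2a4 differed by 0.08, with an exact permutation p of 0.7. After adjustment over the 10 ratios, no p was under 0.5. Aldoa, Pfkm and Pgam2 are at or above 0.5 reads per start, and their partners Aldoc, Pfkl, Pfkp and Pgam1 are under it. In the pairs Eno1 to Eno3 and Ldha to Ldhb, both genes are at or above it. The part of library size in the ratios of all these pairs was not tested.

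In the deposited values 27 of the 35 genes had a log2 fold change below 0, against 50.2% of all tested genes, and the most abundant of them moved alike. At or above 0.5 reads per start were 14 genes: Gpi1, Pfkm, Aldoa, Tpi1, Gapdh, Pgam2, Eno1, Eno3, Pkm, Ldha, Ldhb, Pdk2, Pdha1 and Pdhb. Their recovered reads varied little between libraries. The highest library held 1.06 to 1.27 times the reads of the lowest (median 1.15), while the library totals differed by 1.395 times. In the other 21 genes the same ratio ran from 1.18 to 2.6 (median 1.55). The factor that turns reads into the deposited values was highest in wildtype replicate 3 and lowest in knockout replicate 3.

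In all 14 genes wildtype replicate 3 was the highest wildtype library, against 33.6% of all tested genes and 8 of the other 21. All 14 log2 fold changes were below 0, from -0.19 to -0.01. Without wildtype replicate 3, 6 of the 14 and 16 of all 35 were below 0, and the median of the 35 was 0.00. Without knockout replicate 3, 10 of the 14 and 24 of the 35 were below 0. Of all tested genes, 77 had at least 0.5 reads per base of their exons, with Pgam2, Eno3, Ldhb and Pfkm of the 35 among them. In 92.2% of the 77, wildtype replicate 3 was the highest wildtype library. The highest reads per exon base of any tested gene was 0.925. On the scale of unshared starts Gapdh was at 1.51 (1.45 to 1.67 over the libraries) and Pdhb reached 1.01 in its highest library. Over all starts, shared ones included, Gapdh (0.293), Eno1 (0.288) and Pkm (0.474) would be under 0.5. The sources used here do not give whether reads with the same start were counted once. The part of library size in the small negative fold changes of these 14 genes, and in their intervals, was not tested beyond these values. Aldoc, at 0.057 reads per start, Pdk1 at 0.246 and Slc16a1 at 0.273 are not among the 14, and Pdk2 is.

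**Figure D4:**
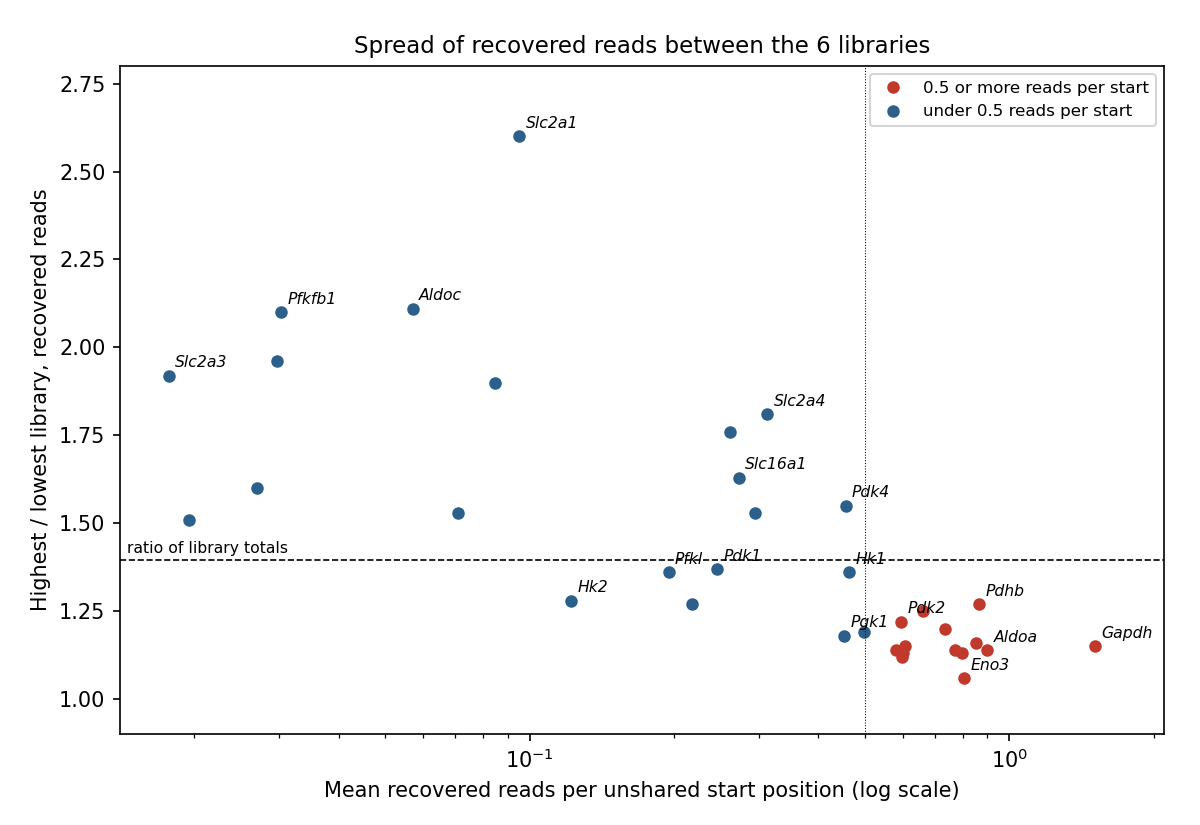
Mean recovered reads per unshared start position (log axis) against the ratio of the highest to the lowest library in recovered reads, 1 point per gene. The 14 genes at or above 0.5 reads per start (red) have ratios of 1.06 to 1.27, under the dashed line of the library totals at 1.395, and the other 21 (blue) range from 1.18 to 2.6.

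The neighbouring pathways held 110 listed genes, of which 96 were tested. Of these, 0 were higher and 1 was lower, which is Slc16a7, and the median log2 fold change was 0.02. At an unadjusted p under 0.05, 7 were higher and 7 were lower, against 8.54% and 7.86% of all tested genes. The groups did not overlap in 9 higher and 9 lower genes, against 11% and 10.9%. Both counts are close to the background. None of 10 tested genes of the remaining pyruvate dehydrogenase complex and its phosphatases passed, and 2 were higher and 1 was lower at an unadjusted p under 0.05. The smallest p was that of Pdhx, for the E3-binding protein, at 692, 641 and 652 in knockout and 542, 504 and 562 in wildtype (log2 difference 0.30, limma adjusted p = 0.0768). All 3 knockout libraries were above wildtype. Of 22 glycogen genes, 0 passed and 1 was higher unadjusted. Gbe1, for the branching enzyme, read 637, 622 and 638 against 556, 532 and 545 (log2 difference 0.22, limma adjusted p = 0.124).

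Among 9 pentose phosphate genes 0 passed and 1 was higher unadjusted. H6pd, the endoplasmic reticulum form of the first enzyme, read 606, 562 and 609 in knockout and 478, 507 and 433 in wildtype (log2 difference 0.33, limma adjusted p = 0.0875). Of 10 genes of the glycerol phosphate and malate shuttles, 0 passed, and 1 was higher and 2 were lower unadjusted. Gpd2, for the mitochondrial glycerol phosphate dehydrogenase, read 155, 190 and 179 against 221, 258 and 245 (log2 difference -0.47, limma adjusted p = 0.087). The groups did not overlap in either gene, H6pd being higher and Gpd2 lower in the knockout. Of 28 regulators, 0 passed, and 1 was higher and 2 were lower unadjusted. Mlxipl, for the glucose-sensing factor ChREBP, had the smallest p at 102, 99 and 154 against 204, 195 and 176, all knockout values being lower, with a log2 difference of -0.72 (limma adjusted p = 0.0893). It passed without knockout replicate 3 (log2 difference -0.92, limma adjusted p = 0.00101) and with a term for sex (0.0377). Hif1a and Epas1, for alpha subunits of the hypoxia-inducible factors, had log2 differences of 0.05 and 0.16 (limma adjusted p = 0.804 and 0.311).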

How the data were processed

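Stranded mRNA libraries of mouse heart were sequenced with single-end reads of 72 bases, per the labels. The submitters' processing notes name Trimmomatic 0.39, STAR 2.7.11a, Picard 3.0.0, featureCounts 2.0.4, DESeq2 1.36.0 and the build mm39, with no role or order. Not given in the sources used here are the strand setting of the counting, the use of Picard and any filter. Each deposited value was taken as a score, that is, a gene's reads times 1 factor per library, rounded. The factors and the recovered reads were read from the spacing of the low values, and 0 columns of values went unmapped.

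The 14974 of 20893 genes that reached 10 in 3 or more libraries were tested in R 4.3.3 with limma 3.58.1 (statmod 1.5.0), with the trend and robust options, on log2(value + 1). Benjamini-Hochberg adjustment covered all of them, and the threshold was 0.05. Fold changes on the log2(value + 1) scale understate the change of low genes. The same code was tested on simulated data. The 35 genes, the other lists and the tests were chosen with earlier results of these data known. Values per library are given for those of the 35 genes that passed, whose groups did not overlap, that had the smallest p of their role or that belong to an isoform pair. Of each neighbouring list they are given for the genes that passed or, where none did, for the gene with the smallest p. Further genes are given by range or by library. Ratios of isoforms were compared by exact permutation tests.

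Transcripts of GENCODE M21 (GRCm38), matched by identifier, gave the start positions of each gene, and exon lengths for 98.2% of the tested genes. Promoters came from RefSeq. Alternatives changed the scaling, filter, pseudocount, moderation and model, added a term for replicate number or for sex, or left out each library.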

Additional observations from a re-analysis of the deposited data

How the results depend on the processing

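Of the 35 genes, 20 kept the sign of their log2 fold change under all 17 alternatives and 15 changed it in at least 1, and 3 genes (Aldoc, Pdk1 and Slc16a1) passed the threshold in at least 1. The median of the 35 ran from -0.10 to 0.00. The number of the 35 that changed was 1 as reported, 2 with no filter, with quantile normalization or with a term for sex, and 0 to 3 when 1 library was left out. Over the genes of the neighbouring pathways it was 1 as reported, 2 with a term for sex and 0 to 8 when 1 library was left out. Over all tested genes it was 141 as reported, 218 with no filter, 83 with a filter at 50, 223 with a term for sex, 72 with voom and 90 without robust moderation. It ran from 0 to 727 when 1 library was left out: 6, 510 and 727 when knockout replicate 1, 2 or 3 was left out, and 3, 0 and 0 when wildtype replicate 1, 2 or 3 was. In the last 2 of these fits, 2176 and 1852 genes had an unadjusted p under 0.05 by limma. With the replicate number as a block, 23 of all genes, 0 of the 35 and 0 of the neighbouring genes passed. Deviations from the group means of same-numbered libraries correlated at -0.17, -0.11 and -0.13. Numbers 1 and 3 join libraries of unlike sex, so these correlations cannot decide whether the replicate numbers pair the libraries. Knockout 1 with wildtype 2, 2 with 3 and 3 with 1, which are of the same sex, correlated at 0.12, 0.14 and 0.12, and no label links them. The remaining male pairs, knockout 1 with wildtype 3 and knockout 2 with wildtype 2, correlated at 0.04 and -0.11. A call lost under the block is not read as a weaker effect, as the Aldoc log2 difference stayed at -0.95 there. Whether the block is the right model is not known. The split of 76 higher and 65 lower genes became 42 and 58 with equal totals, 52 and 78 with equal upper quartiles and 28 and 44 with voom. These scalings moved the median of all genes by at most -0.04. Depth limits the lowest of the 35 most: Pfkfb1 rests on a mean of 50.5 recovered reads. The cause of the lost and gained calls was not tested.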
